A study of Mus musculus with 9 samples.

Results

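The genes described here build the junctions that seal and couple epithelial cells: the claudins, the connexins of gap junctions, and a set of tight junction, polarity and adhesion genes. They were chosen by name, as every claudin and connexin with a number in its symbol, the zonula occludens scaffolds, and Ocln, F11r, Jam2, Jam3, Marveld2, Marveld3, Cgn, Pard3, Patj, Cdh1 and Epcam. Of 53 such genes, 48 were measured, among 19505 genes with a symbol on the array. They comprise 23 of 23 claudins, 12 of 16 connexins and 13 of 14 of the others. The remaining genes were not analysed here.

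Female mice of strain C57BL6/J, 12 weeks old, gave the submandibular salivary glands, and their RNA was read on Clariom S arrays, with no genetic change named in the labels. There were 3 groups of 3 arrays, each array a separate biological replicate per the study's design text. The groups were mock surgery followed by 3 days of healing, partial resection of the gland followed by 3 days, and partial resection followed by 14 days. Mock glands were taken on day 3 only, so at day 14 resection and time since surgery cannot be told apart. Arrays of 1 group correlated at 0.985 to 0.990 over 22206 tested transcript clusters, the probe groups that each stand for a gene. Median log2 values ran from 5.09 to 5.24 over the 9 arrays, and no junction gene reached the array maximum of 19.93. Whole gland RNA was measured, so fewer cells of a type and less RNA per cell cannot be told apart. Log2 values are given for some markers of the gland's epithelium, but probes differ in binding, so levels are not compared between genes. The keratin Krt8 read 11.54 to 12.37, the duct keratin Krt19 3.66 to 5.50 and the myoepithelial marker Oxtr 3.79 to 4.95. The lowest value of any acinar marker was 7.01.

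Tight junctions ring the apical side of epithelial cells. Claudins form their strands, and the mix of claudins sets which ions pass between cells, some making barriers and others channels. Occludin and tricellulin lie in the same strands, the zonula occludens proteins anchor them to actin, and E-cadherin holds the neighbouring adherens junction together. Connexins assemble into channels that join the cytoplasm of adjacent cells and, in salivary acini, let calcium and other signals spread between secretory cells.

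Promoter sequences are shown for the genes with the clearest changes, Cldn1 and Gja1, and for Cldn10, whose alternative starts encode claudins that favour passage of different ions. They are RefSeq sequences of build GRCm38.p6, each the 250 bases before an annotated start, 5′ to 3′. Capitals mark any match, on either strand, to 5 motifs: the AP-1 site TGANTCA, the Grainyhead site AACNGGTT, the Snail-type E-box CAGGTG, the clock E-box CACGTG and the D-box TTATGNAA. The Cldn1 window lies at chr16:26371840-26372089, minus strand, the Gja1 window at chr10:56377050-56377299, plus strand, and the Cldn10 windows at chr14:118787621-118787870, plus strand for the upstream start and chr14:118854700-118854949, plus strand for the downstream start.
Cldn1: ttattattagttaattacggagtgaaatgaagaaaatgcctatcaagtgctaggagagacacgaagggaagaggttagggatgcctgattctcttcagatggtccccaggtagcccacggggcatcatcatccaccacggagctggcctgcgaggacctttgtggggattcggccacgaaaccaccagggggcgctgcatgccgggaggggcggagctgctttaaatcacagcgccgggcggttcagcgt
Gja1: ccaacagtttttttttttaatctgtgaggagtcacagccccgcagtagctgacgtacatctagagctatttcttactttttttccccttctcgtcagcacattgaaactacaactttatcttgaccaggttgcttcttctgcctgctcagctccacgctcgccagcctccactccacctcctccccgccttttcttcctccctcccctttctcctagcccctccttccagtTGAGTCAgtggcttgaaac
Cldn10 upstream start: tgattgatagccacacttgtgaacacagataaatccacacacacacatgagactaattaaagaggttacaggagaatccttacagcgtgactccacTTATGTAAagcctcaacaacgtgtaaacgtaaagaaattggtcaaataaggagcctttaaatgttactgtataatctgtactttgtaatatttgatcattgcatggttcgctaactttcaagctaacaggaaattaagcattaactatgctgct
Cldn10 downstream start: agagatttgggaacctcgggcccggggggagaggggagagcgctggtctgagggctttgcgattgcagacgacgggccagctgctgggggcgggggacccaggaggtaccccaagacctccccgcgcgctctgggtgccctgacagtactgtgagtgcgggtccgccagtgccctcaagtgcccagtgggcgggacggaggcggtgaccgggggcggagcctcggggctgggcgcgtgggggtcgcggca
The Gja1 window holds 1 AP-1 match, TGAGTCA, at 19 to 13 bases before the start, and AP-1 matches occur in 6.75% of 32851 such windows. The upstream Cldn10 window holds 1 D-box match, which 3.07% of windows hold, and has 36.0% G and C bases against 72.4% in the downstream window. None of the 5 motifs was matched in the Cldn1 window or in the downstream Cldn10 window. Windows were found for 39 of the 48 measured genes, 57 windows in all, of which 5 held an AP-1 match (8.77%, against 6.75%), 3 a Grainyhead match (5.26%, against 1.79% of all windows), 14 a Snail-type E-box (24.6%, against 17.2%), 2 a clock E-box (3.51%, against 6.02%) and 2 a D-box (3.51%, against 3.07%). A match is a description of letters in the window and not a site shown to be used. The array reads a gene as a whole, so its Cldn10 value does not tell the starts apart.

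limma called few junction genes after resection, and a gene without a call is not shown to be unchanged. On day 3, limma called 4 of 48, with Gja1 higher and Cldn3, Cldn8 and Cldn10 lower, and on day 14 it called Tjp3 higher. Between the resected groups, Cldn1 and Tjp3 were higher and Gja1 lower on day 14. The calls use a moderated test with p-values adjusted by Benjamini and Hochberg over all 22206 transcript clusters, and a threshold of 0.05. On day 3 against mock, 4 of the 48 (8.33%) were called beside 6.27% of all transcript clusters, 1 higher (beside 4.92%) and 3 lower (beside 1.36%). On day 14 against mock, 1 of 48 was called, higher, beside 0.153% of all transcript clusters in either direction and 0.0991% higher. Between the resected groups, 3 of 48 were called beside 6.28%, 2 higher (beside 1.40%) and 1 lower (beside 4.88%). At an unadjusted p under 0.05, limma gave 5 of 48 on day 3 against mock, beside 18.6% of all transcript clusters. The share called on day 3 is near the background. The median difference of the junction genes was -0.09 log2 on day 3 (-0.07 over all transcript clusters), 0.02 on day 14 against mock (0.00 over all) and 0.08 between the resected groups (0.06 over all).

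**Figure D1:**
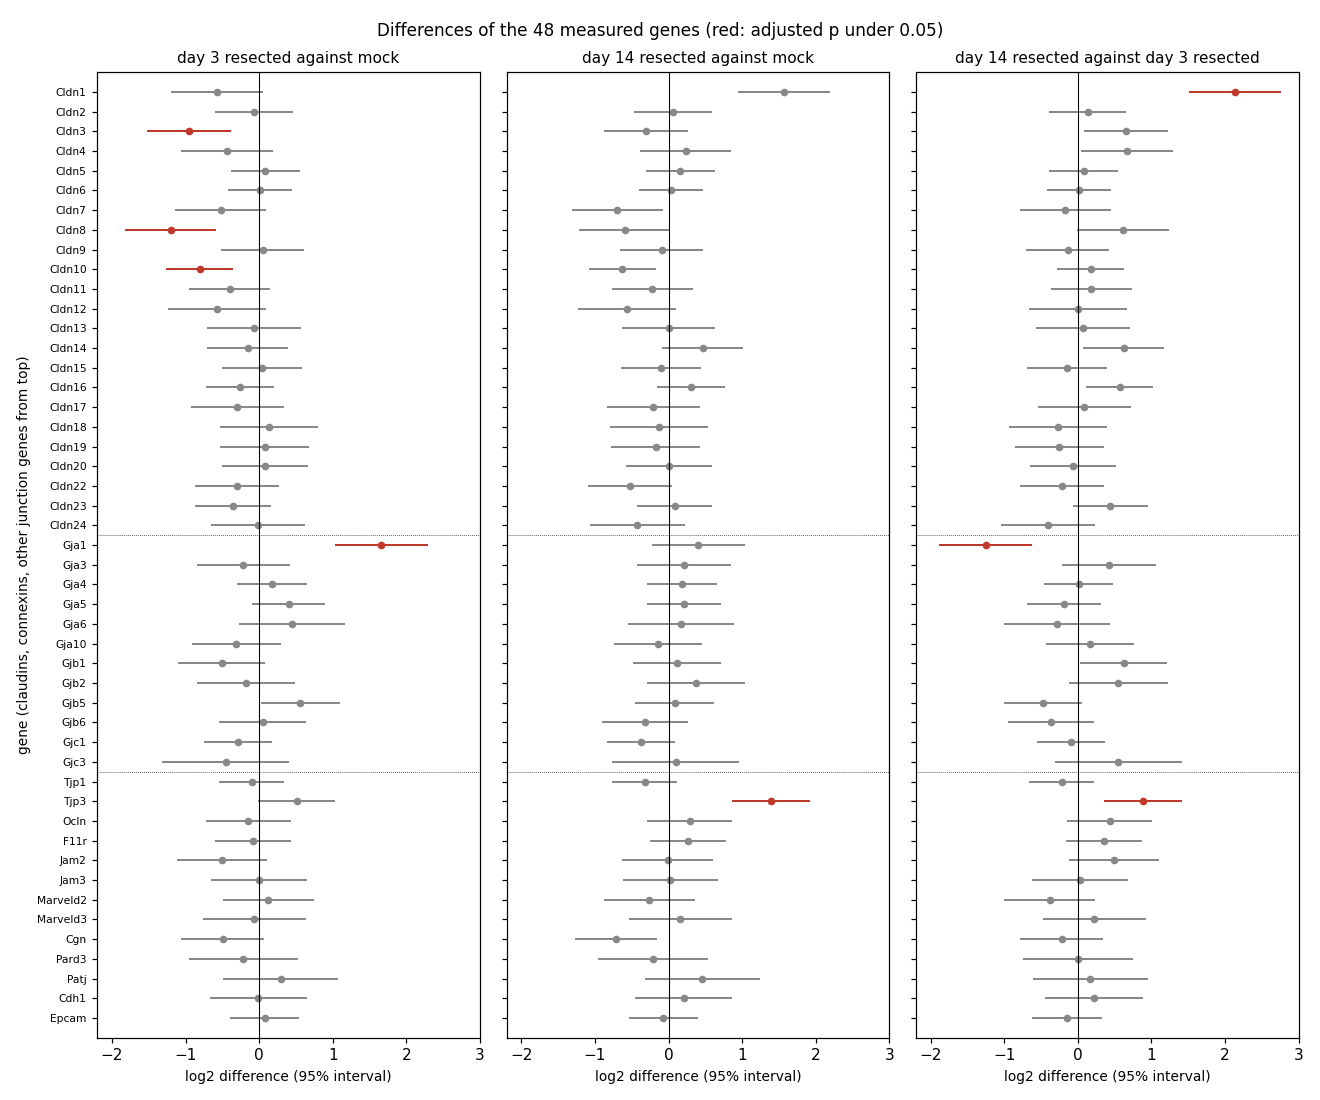
Log2 difference (x axis, with its 95% interval) of each of the 48 measured genes in the 3 comparisons, claudins at the top, connexins in the middle and the other junction genes below; red marks an adjusted p under 0.05. Most points lie within 0.6 of 0, and the coloured ones are Cldn3, Cldn8, Cldn10 and Gja1 on day 3, Tjp3 on day 14 against mock, and Cldn1, Gja1 and Tjp3 between the resected groups.

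Among claudins, 3 of 23 were lower on day 3 after resection, beside 1.36% of all transcript clusters called lower, and limma called 0 higher, also 0 at an unadjusted p under 0.05 (beside 10.0% of all). Of the 23, 16 stayed below 5 log2 on all 9 arrays, a cut set after the values were seen. Of 11103 transcript clusters above the median level, limma called 930 higher and 250 lower. The 3 called claudins differ in kind. Cldn10 encodes a claudin that forms ion channels between cells, Cldn8 one known from the distal tubules and collecting ducts of the kidney, and Cldn3 a barrier claudin found in many epithelia.

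Cldn8 had log2 values of 13.44, 12.80 and 12.47 on the mock arrays, 11.94, 11.93 and 11.23 on day 3 after resection, and 12.17, 12.37 and 12.40 on the day 14 resected arrays. All mock arrays lay above all resected arrays of either day, and all day 14 arrays lay above all day 3 resected arrays. Cldn8 fell by 1.21 ± 0.28 log2 on day 3 (difference ± SE, n = 3 against 3, limma adjusted p = 0.0205). On day 14 the difference from mock was -0.59 ± 0.28 (limma adjusted p = 0.617), and from day 3 to day 14 it was 0.61 ± 0.28 (limma adjusted p = 0.260), so neither a return nor a lasting fall was shown. Its day 3 call ended without mock replicate 1 (-0.94, limma adjusted p = 0.0813) or day 3 resected replicate 3 (-0.97, limma adjusted p = 0.103), and with only the groups compared (limma adjusted p = 0.0581).

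Cldn10 stood at 17.15, 17.29 and 16.97 on the mock arrays, 16.15, 16.54 and 16.29 on day 3 after resection, and 16.64, 16.47 and 16.40 on the day 14 resected arrays. Both resected groups lay below every mock array and overlapped each other. The fall on day 3 was -0.81 ± 0.20 (limma adjusted p = 0.0331). On day 14 the difference from mock was -0.63 ± 0.20, with a 95% interval of -1.07 to -0.19, but did not pass (limma adjusted p = 0.420). The day 3 call ended in 6 of 17 alternative fits, 4 of them with 1 array left out (replicates 1 and 2 of mock, replicates 1 and 3 of day 3 resected), at adjusted p-values of 0.0558 to 0.108 and differences that stayed between -0.91 and -0.72 over all 17.

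Cldn3 had values of 10.78, 11.22 and 10.87 on the mock arrays, 10.48, 10.01 and 9.51 on day 3 after resection, and 10.64, 10.53 and 10.79 on the day 14 resected arrays. The day 3 resected arrays lay below both other groups. Its fall on day 3 was -0.95 ± 0.26 and only just passed (limma adjusted p = 0.0458). The call ended in 10 of 17 alternative fits, 8 of them with 1 array left out (each array but day 3 resected replicate 1), at adjusted p-values of 0.0615 to 0.194, with the smallest difference, -0.71, without day 3 resected replicate 3. On day 14 it differed from mock by -0.30 ± 0.26 (limma adjusted p = 0.803) and from day 3 by 0.65 ± 0.26 (limma adjusted p = 0.185).

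Cldn1, a barrier claudin best known from skin, was called only between the resected groups. Its values were 11.07, 10.60 and 11.71 on the mock arrays, 10.61, 10.75 and 10.32 on day 3 after resection, and 12.83, 12.89 and 12.37 on the day 14 resected arrays. Every day 14 array lay above every other array, while the mock and day 3 resected arrays overlapped. Cldn1 was 2.14 ± 0.28 log2 higher on day 14 than on day 3 after resection (limma adjusted p = 3.97e-04), and this call held in each of 17 alternative fits, where the difference ran from 2.02 to 2.30. Against mock, the day 14 difference was 1.57 ± 0.28 and narrowly missed the threshold (limma adjusted p = 0.0566, 95% interval 0.96 to 2.18). That comparison passed in 3 alternative fits, with quantile normalisation (limma adjusted p = 0.0487), with robust and intensity-trended variances (0.0132) and without mock replicate 3 (0.0115), and adjusted p-values over all 17 ran from 0.0115 to 0.257. On day 3 the difference from mock was -0.57 ± 0.28 (limma adjusted p = 0.314).

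**Figure D2:**
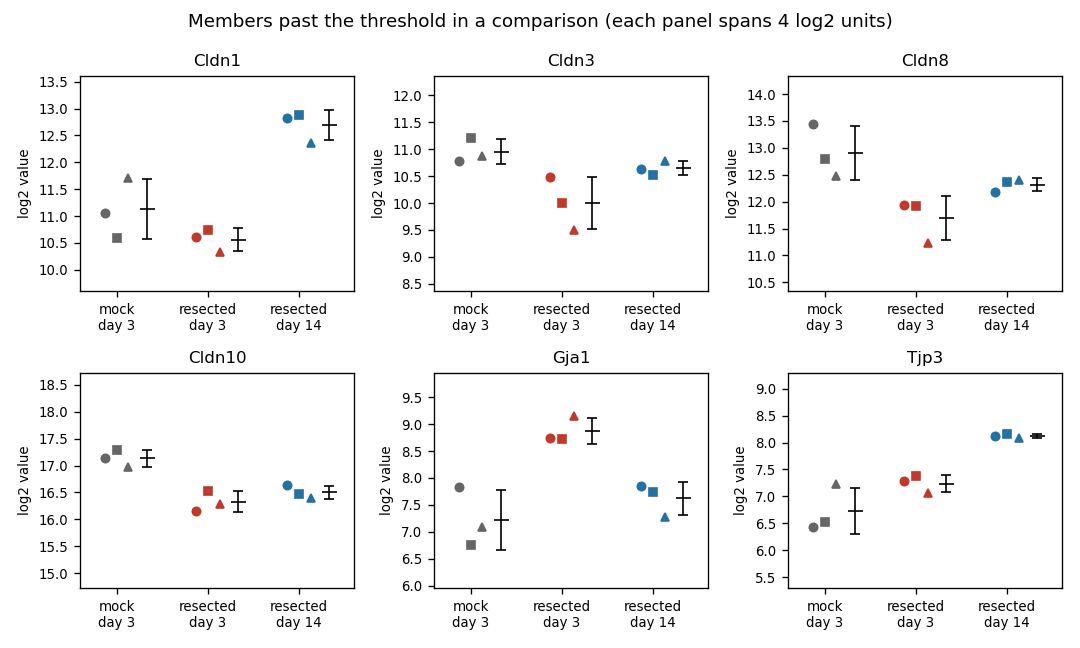
Log2 value (y axis) of the 6 genes called in any comparison on each array, by group; circles, squares and triangles are replicates 1, 2 and 3, and the black bar is mean ± SD (n = 3). Each panel spans 4 log2 units, and the day 14 arrays of Cldn1 and Tjp3 lie above all others while the day 3 resected arrays of Gja1 do.

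The remaining claudins gave no call in any comparison. Cldn4, a barrier claudin of many secretory epithelia, had 12.04, 12.01 and 11.65 on the mock arrays, 11.78, 11.75 and 10.86 on day 3 after resection, and 11.81, 12.12 and 12.47 on the day 14 resected arrays. Its day 14 arrays all lay above its day 3 resected arrays, with a difference of 0.67 ± 0.28 (limma adjusted p = 0.213). Cldn7, which joins Epcam in a complex at the lateral membrane, averaged 8.54 ± 0.57 (SD, n = 3) in mock glands, 8.02 ± 0.29 on day 3 and 7.84 ± 0.13 on day 14. Its mock arrays overlapped both resected groups, and the day 14 difference was -0.70 ± 0.28 (limma adjusted p = 0.555). Cldn12 averaged 6.43 ± 0.55 in mock glands, 5.86 ± 0.45 on day 3 and 5.87 ± 0.18 on day 14, and its day 14 arrays lay below every mock array (difference -0.57 ± 0.30, limma adjusted p = 0.667). Another 16 claudins stayed below 5 log2 on all 9 arrays, from 2.14 to 4.59, a cut set after the values were seen. They include Cldn2, a cation channel of leaky epithelia, Cldn16 and Cldn19, the magnesium-handling pair of the kidney, Cldn14, Cldn18, Cldn23 and Cldn5. The table has no detection calls, so such low signals do not show whether a gene is expressed.

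Cldn5 is the claudin of blood vessel endothelium. It read 3.06, 3.05 and 3.05 on the mock arrays, 3.07, 3.26 and 3.07 on day 3 after resection and 2.90, 3.26 and 3.48 on the day 14 resected arrays. Over the same arrays the 11 measured vessel markers ran from 3.26 (Robo4) to 9.83 (Eng), with Pecam1 at 5.61 to 7.35 and Cdh5 at 6.29 to 7.75. Probes differ in how strongly they bind, so these levels are not compared between genes.

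Of the connexins, 1 of 12 was called on day 3, beside 6.27% of all transcript clusters. Gja1 encodes connexin 43, the most widespread connexin, found in fibroblasts, muscle, endothelium, myoepithelium and macrophages. Its values were 7.82, 6.75 and 7.08 on the mock arrays, 8.74, 8.73 and 9.16 on day 3 after resection, and 7.84, 7.75 and 7.28 on the day 14 resected arrays. The day 3 resected arrays lay above every array of the other groups, which overlapped each other. Gja1 rose by 1.66 ± 0.29 on day 3 (limma adjusted p = 0.00333, 95% interval 1.04 to 2.28), and this call held in each of 17 alternative fits, between 1.42 and 1.96. From day 3 to day 14 the difference was -1.26 ± 0.29 (limma adjusted p = 0.0182), a call that ended without day 3 resected replicate 3 (-1.11, limma adjusted p = 0.0933) or day 14 resected replicate 3 (-1.08, limma adjusted p = 0.0858). On day 14 the difference from mock was 0.40 ± 0.29 (limma adjusted p = 0.757).

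Markers of other cells were read on the same arrays, and the counts are those called by limma on day 3, beside 4.92% of all transcript clusters called higher and 1.36% lower. Of the measured fibroblast markers 6 of 7 rose on day 3, with a mean log2 value over the list of 9.91 to 11.01 on mock arrays, 12.50 to 13.87 on day 3 resected arrays and 11.23 to 11.77 on day 14 arrays. All 8 measured macrophage markers rose, from 7.93 to 8.77 on mock arrays to 11.55 to 12.00 on day 3 resected arrays, with 8.80 to 9.09 on day 14. All 7 measured markers of dividing cells rose too, with 5.53 to 7.52 on mock arrays, 9.69 to 10.86 on day 3 resected arrays and 5.39 to 5.60 on day 14. Of 11 blood vessel markers 1 rose, Eng, and the list ran from 5.79 to 5.96, 6.12 to 6.50 and 6.01 to 6.26 in the same order. Among 8 markers of myoepithelial and basal cells, 0 rose and 1 fell, the smooth muscle myosin Myh11. At an unadjusted p under 0.05, limma gave 1 of the 8 higher and 2 lower, beside 18.6% of all transcript clusters in either direction. The lowest single value in the fibroblast list was 5.18, in the macrophage list 4.83, in the dividing cell list 3.00 and in the vessel list 3.26, and values this low do not show whether a gene is expressed. The part of these cells in the rise of Gja1 was not tested.

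**Figure D3:**
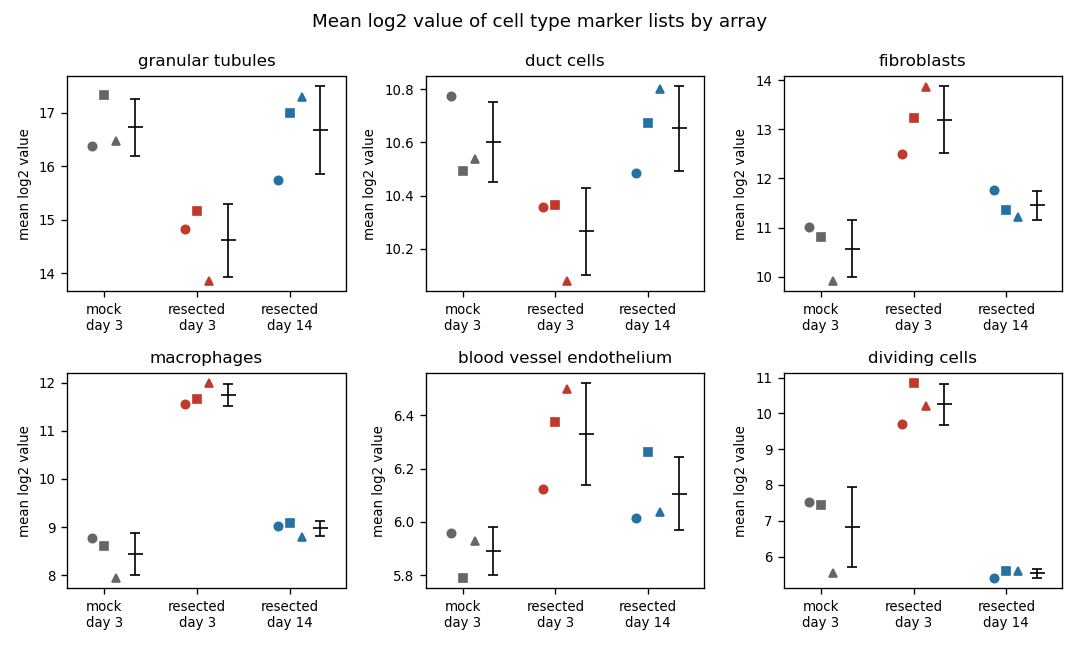
Mean log2 value (y axis, scale differs between panels) of the measured markers of 6 cell types on each array, with replicates 1, 2 and 3 as circles, squares and triangles and the black bar as mean ± SD (n = 3). Granular tubule markers are lowest, and fibroblast, macrophage and dividing cell markers highest, on the day 3 resected arrays.

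The epithelial lists differed in how they moved on day 3, again beside 4.92% of all transcript clusters called higher and 1.36% lower. All 5 measured products of the granular tubules, a duct segment of rodents, fell on day 3, with list means of 16.37 to 17.33 on mock arrays, 13.85 to 15.17 on day 3 resected arrays and 15.74 to 17.29 on day 14 arrays. Of 11 duct markers 1 fell, the sodium channel subunit Scnn1g, and 1 rose, Krt19, with list means of 10.49 to 10.77, 10.08 to 10.37 and 10.48 to 10.80. Of 9 acinar markers, 2 fell, Bhlha15 and the cotransporter Slc12a2. Chrm3 and Lpo differed by -0.65 and -0.03, Aqp5 and Bpifa2 by 0.27 and 0.49, and Car6, Pip and Prol1 by 0. The acinar list means overlapped between mock (16.43 to 16.66) and day 3 resected arrays (16.09 to 16.49). This overlap rested on day 3 resected replicate 3, with a list mean of 16.49. The means of replicates 1 and 2, at 16.22 and 16.09, lay below every mock mean. Bpifa2 read 17.88 in day 3 resected replicate 3 but 12.80 and 12.40 in replicates 1 and 2, beside 13.50 to 14.09 in mock glands. Car6, Pip and Prol1 of this list read the array maximum of 19.93, where no rise can show. Single values in the acinar, granular tubule and duct lists were at least 7.01, 11.19 and 3.66. The part of these cells in the falls of Cldn3, Cldn8 and Cldn10 was not tested.

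The connexins of the acinar cell did not pass in any comparison. Gjb1 encodes connexin 32, and had 10.42, 10.89 and 11.01 on the mock arrays, 10.65, 10.15 and 9.98 on day 3 after resection, and 11.31, 10.58 and 10.78 on the day 14 resected arrays. The groups overlapped, with a day 3 difference of -0.51 ± 0.27 (limma adjusted p = 0.339, 95% interval -1.09 to 0.07). Gjb2 encodes connexin 26, and had 8.17, 9.10 and 9.02 on the mock arrays, 9.13, 8.54 and 8.08 on day 3 after resection, and 9.19, 9.17 and 9.05 on the day 14 resected arrays. The 95% interval of its day 3 difference, -0.84 to 0.47, allows a change of either sign.

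Vessel and nerve connexins gave no call either. Gja4, of arterial endothelium, ran from 4.66 to 5.21 over the 9 arrays, and Gja5, also of arteries, from 3.38 to 4.18. The 3 day 3 resected arrays of Gja5, at 4.18, 3.94 and 3.92, lay above the mock arrays, at 3.77, 3.70 and 3.38, with a difference of 0.40 ± 0.23 (limma adjusted p = 0.378). Gjc1, of vascular smooth muscle, averaged 5.69 ± 0.10 in mock glands, 5.41 ± 0.18 on day 3 and 5.32 ± 0.23 on day 14. Both resected groups of Gjc1 lay below the mock arrays, with differences of -0.28 ± 0.21 and -0.38 ± 0.21 (limma adjusted p = 0.529 and 0.678). Gjc3, of myelinating glia, ranged most widely among connexins that gave no call, from 3.82 to 5.86, with overlapping groups. Gjb5, a connexin of stratified epithelia, differed by 0.56 ± 0.24 on day 3 (limma adjusted p = 0.231). The other connexins, Gja3, Gja6, Gja10 and Gjb6, lay between 2.14 and 5.66 and differed from mock by at most 0.45 on either day.

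The plaque and membrane genes of the tight junction held the 1 junction gene called against mock on day 14, beside 0.153% of all transcript clusters. Tjp3 encodes ZO-3, the epithelial member of the zonula occludens scaffolds. Its values were 6.43, 6.52 and 7.22 on the mock arrays, 7.28, 7.37 and 7.05 on day 3 after resection, and 8.12, 8.16 and 8.08 on the day 14 resected arrays. Every day 14 array lay above every other array. Tjp3 was higher on day 14 by 1.39 ± 0.24 against mock (limma adjusted p = 0.0422) and by 0.88 ± 0.24 against day 3 (limma adjusted p = 0.0445), while on day 3 it differed from mock by 0.51 ± 0.24 (limma adjusted p = 0.274). The day 14 call against mock ended in 10 of 17 alternative fits, at adjusted p-values of 0.0647 to 0.192, including the fits without any 1 array other than mock replicate 3. The difference itself stayed between 1.25 and 1.64. The call between the resected groups ended in 7 of 17 alternative fits, 6 of them without any 1 resected array, with differences of 0.79 to 1.05 over all 17.

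Tjp1, the broadly expressed ZO-1, gave no call. It had 10.35, 10.38 and 10.39 on the mock arrays, 10.03, 10.46 and 10.33 on day 3 after resection, and 10.05, 9.97 and 10.13 on the day 14 resected arrays. All day 14 arrays lay below the mock arrays, with a difference of -0.32 ± 0.20 (limma adjusted p = 0.715). Whether Tjp1 and Tjp3 differ in their response was not tested. Cgn, or cingulin, which links the plaque to actomyosin, averaged 7.08 ± 0.35 in mock glands, 6.58 ± 0.21 on day 3 and 6.36 ± 0.35 on day 14. Its day 14 arrays, at 5.96, 6.55 and 6.58, lay below the mock arrays, at 7.39, 6.69 and 7.15, with a difference of -0.72 ± 0.25 (limma adjusted p = 0.489).

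The genes that mark the epithelial junction as a whole gave no call, and their intervals limit how far they could have moved. Cdh1, E-cadherin, had 15.36, 14.62 and 15.88 on the mock arrays, 15.50, 15.40 and 14.93 on day 3 after resection, and 15.45, 15.35 and 15.68 on the day 14 resected arrays. The day 3 difference was -0.01 ± 0.30, with a 95% interval of -0.66 to 0.64. Epcam, an epithelial adhesion molecule that binds claudin 7, stayed between 14.72 and 15.33 on all 9 arrays, with intervals of -0.38 to 0.53 on day 3 and -0.53 to 0.39 on day 14 against mock. Ocln, occludin, averaged 9.93 ± 0.40, 9.78 ± 0.41 and 10.21 ± 0.03 in mock, day 3 and day 14 glands, with a day 3 interval of -0.72 to 0.42. F11r, the adhesion molecule JAM-A, averaged 11.98 ± 0.09, 11.90 ± 0.37 and 12.25 ± 0.23, with a day 3 interval of -0.59 to 0.42.

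**Figure D4:**
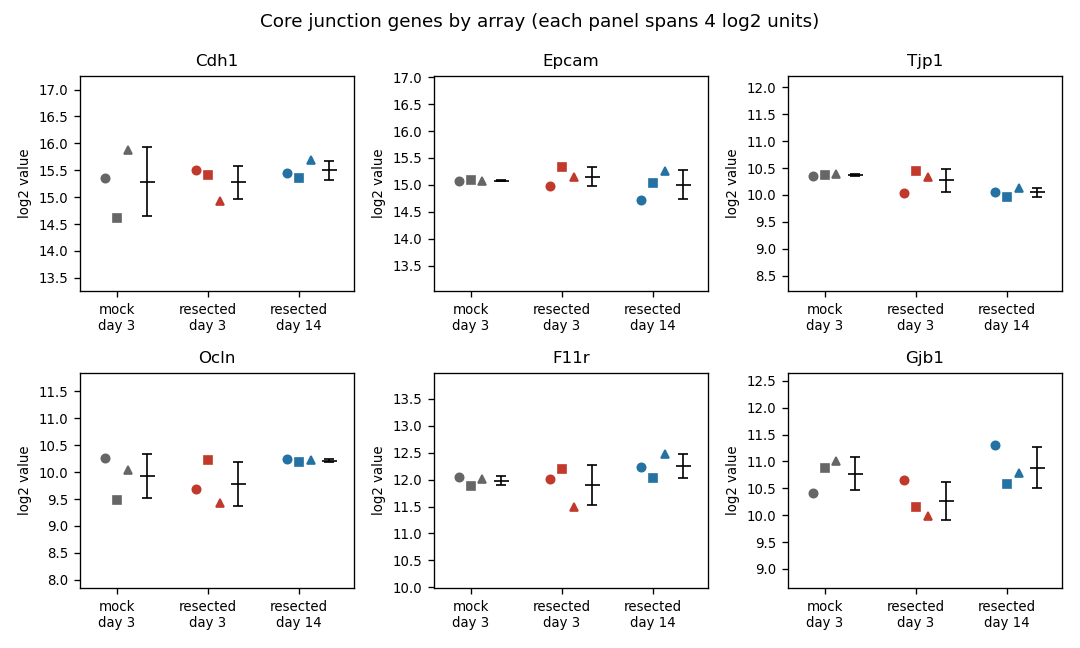
Log2 value (y axis) of Cdh1, Epcam, Tjp1, Ocln, F11r and Gjb1 on each array, by group; symbols are replicates 1, 2 and 3 and the black bar is mean ± SD (n = 3). Each panel spans 4 log2 units; the day 3 resected arrays overlap the mock arrays in all 6 panels.

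The other adhesion and polarity genes overlapped between mock and day 3 resected arrays. Jam2, an adhesion molecule of endothelium and other cells, averaged 10.81 ± 0.25, 10.30 ± 0.45 and 10.79 ± 0.38 in mock, day 3 and day 14 glands. Jam3 ran from 5.36 to 6.46 over the 9 arrays. Marveld2, tricellulin, which seals the corners where 3 cells meet, averaged 8.09 ± 0.34, 8.22 ± 0.11 and 7.83 ± 0.54. Marveld3 had 1 array apart, day 3 resected replicate 1 at 8.88, against 7.64 and 7.42 on the other day 3 arrays and 8.05 ± 0.04 (SD, n = 3) on mock arrays. Pard3, a scaffold of apical polarity, ran from 8.17 to 9.55 and Patj, of the Crumbs complex, from 6.22 to 7.89. None of these was called by limma. Of the 13 plaque and membrane genes, 0 had an unadjusted p under 0.05 on day 3, beside 18.6% of all transcript clusters. On day 14 against mock, 1 was higher and 1 lower at an unadjusted p under 0.05, beside 8.18% of all in either direction, and groups did not overlap for 4 of 13, beside 13.0%.

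Over all 48 junction genes, groups did not overlap for 8 on day 3 against mock (16.7%, beside 23.0% of all transcript clusters), 9 on day 14 against mock (beside 13.0%) and 12 between the resected groups (beside 25.4%). Of the 12, 9 were higher on day 14, and 7 of these 9 were among the 23 claudins: Cldn1, Cldn3, Cldn4, Cldn8, Cldn14, Cldn16 and Cldn23. Over all transcript clusters, 12.9% were higher without overlap on day 14. Only Cldn1 of these 7 passed the threshold. Cldn14, Cldn16 and Cldn23 stayed below 5 log2 on all arrays, where signals do not show whether a gene is expressed. Of the 48 genes, 24 had a mean level above the median of all transcript clusters. The 4 calls on day 3 lay among these 24 (16.7%), beside 10.6% of all transcript clusters above that level, which held 1180 of the 1393 calls over all. The half-width of the 95% interval of a difference ran from 0.42 to 0.85 log2 with a median of 0.58. An observed difference larger than its half-width has an unadjusted limma p under 0.05. A true change of that size could still be missed.

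Beyond these families, related lists of 3 to 17 junction partners and regulators held 0 or 1 call each in any comparison, beside 6.27% of all transcript clusters on day 3 against mock, 0.153% on day 14 against mock and 6.28% between the resected groups. The list of other adhesion, angulin and scaffold genes held 15. On day 3 against mock, limma gave 1 higher and 3 lower at an unadjusted p under 0.05. Over all transcript clusters, 18.6% passed this in either direction. After adjustment, 0 of the 15 were called on day 3 against mock and 1 between the resected groups. That gene was Ildr1, an angulin that recruits tricellulin to the corners of cells, with 10.99, 10.97 and 10.82 on the mock arrays, 10.45, 10.54 and 10.23 on day 3 after resection, and 11.48, 11.38 and 11.67 on the day 14 resected arrays. The 3 groups did not overlap, and Ildr1 was 1.10 ± 0.20 higher on day 14 than on day 3 (limma adjusted p = 0.00411), which held in each of 17 alternative fits. Against mock it differed by -0.52 ± 0.20 on day 3 (limma adjusted p = 0.173) and 0.58 ± 0.20 on day 14 (limma adjusted p = 0.467).

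Of 12 desmosome genes, Pkp1 was called, the plakophilin of stratified epithelia. It had 10.53, 10.14 and 10.45 on the mock arrays, 9.66, 9.70 and 9.54 on day 3 after resection, and 10.73, 10.87 and 11.06 on the day 14 resected arrays, with no overlap between the 3 groups. Pkp1 was 1.26 ± 0.20 higher on day 14 than on day 3 (limma adjusted p = 0.00189), also in each of 17 alternative fits, and differed from mock on day 3 by -0.74 ± 0.20 (limma adjusted p = 0.0508). That day 3 difference passed in 6 of 17 alternative fits, at adjusted p-values of 0.0256 to 0.0480, with quantile normalisation, median centring, the dimmest 30% left out, robust and intensity-trended variances, array weights, or without mock replicate 2. In the polarity list of 12, Dlg1 fell by 1.17 ± 0.28 on day 3 (limma adjusted p = 0.0258). That call was lost in 5 of 17 alternative fits, 4 of them with replicate 1 or 3 of either group left out. On day 14 Dlg1 differed from mock by -0.95 ± 0.28 (limma adjusted p = 0.349). The Crumbs family gene Crb3 was 0.80 ± 0.22 higher on day 14 than on day 3 (limma adjusted p = 0.0453). Its call was lost in 8 of 17, among them those without mock replicate 2 or any 1 resected array. Against mock, Crb3 differed by -0.60 on day 3 and 0.20 on day 14 (limma adjusted p = 0.139 and 0.862). Of 11 adherens junction genes, Vcl, which ties junctions and focal contacts to actin, was lower on day 14 than on day 3. The difference was -1.26 ± 0.26 (limma adjusted p = 0.00993, lost without day 3 resected replicate 3 at an adjusted p of 0.0545). Against mock, Vcl differed by 0.745 on day 3 and -0.512 on day 14 (limma adjusted p = 0.126 and 0.649).

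Regulators that act on junction genes gave 1 call among 17. The epithelial factor Elf5 was 0.75 ± 0.21 higher on day 14 than on day 3 (limma adjusted p = 0.0498, lost in 8 of 17 alternative fits, among them those without mock replicate 3 or any 1 resected array), with 15.26, 14.74 and 15.02 on mock arrays against 14.32, 14.49 and 14.29 on day 3 resected arrays. On day 3 it differed from mock by -0.64 ± 0.21 (limma adjusted p = 0.0983), which passed in 2 of 17 alternative fits, with quantile normalisation (0.0489) and with robust and intensity-trended variances (0.0452). Grhl2, an activator of claudin and E-cadherin genes, ran from 8.44 to 9.75 over the 9 arrays, and the repressors Snai2 and Zeb1 from 8.43 to 9.35 and from 7.94 to 9.78, with no call. The day 14 arrays of Grhl2 lay below its mock arrays (-0.71 ± 0.25, limma adjusted p = 0.497). On day 3, Zeb1 differed from mock by 0.85 ± 0.35 (limma adjusted p = 0.212) and Snai2 by -0.11 ± 0.23 (limma adjusted p = 0.861). At an unadjusted p under 0.05, limma gave 2 of the 17 higher and 3 lower on day 3, beside 18.6% of all transcript clusters in either direction. The 3 pannexins gave 0 calls by limma in any comparison. At an unadjusted p under 0.05, limma gave 1 higher on day 3 against mock, beside 10.0% of all transcript clusters. From day 3 to day 14 it gave 1 lower, beside 2264 of all 22206 transcript clusters.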

How the data were processed

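Total RNA of 9 submandibular glands was hybridised to Clariom S mouse arrays. Per the labels and the submitters' processing notes, the authors made the deposited log2 values with Transcriptome Analysis Console and RMA, which subtracts background, brings arrays to a common distribution and summarises probes per transcript cluster, so a log2 difference is on the deposited scale and may understate changes of dim probes. The genome build of the array annotation is not given in the sources used here.

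Of 28846 deposited rows, 6640 control rows were left out and 22206 transcript clusters tested, of which 19572 carry a symbol, taken through the Entrez identifier from RefSeq (GRCm38.p6). Each junction gene measured has 1 transcript cluster. limma 3.58.1 in R 4.3.3 fitted all 9 arrays with a mean per group (6 residual and 6.63 prior degrees of freedom), and was tested on simulated data. P-values are two-sided. The members and lists were chosen with earlier results of these data known. Values per array are given for genes past the threshold in any comparison and for a fixed panel, and related lists are named by up to 6 called members. Alternatives were quantile normalisation, median centring, leaving out the dimmest 30% of transcript clusters, only the groups compared, robust and trended variances, array weights, a replicate block, averaging clusters of a symbol, and leaving out each array. The number of arrays limits the precision.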

Additional observations from a re-analysis of the deposited data

Results flagged for a closer look

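The 2 differences from mock, on day 3 and on day 14, share the same mock arrays, which cancel when they are compared, so the day 14 against day 3 comparison tests whether they differ. For 3 of the 48 junction genes limma called such a difference, beside 6.28% of all transcript clusters. The change from day 3 to day 14 was 2.14 log2 for Cldn1, -1.26 for Gja1 and 0.88 for Tjp3. The Cldn1 call held in each of 17 alternative fits, while the Gja1 call was lost in 2 and the Tjp3 call in 7. Groups of 3 arrays are too small for a test of outlying samples.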

How the results depend on the processing

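Against mock on day 3, 4 junction genes were called, and Gja1 was called in every alternative fit. The count was 1 with only the groups compared, 2 with the replicate block, and 1 to 3 when 1 array was left out (1 without mock replicate 1 or day 3 resected replicate 3, and 2 without mock replicate 2). Against mock on day 14, the count of 1 became 2 with quantile normalisation and with robust and intensity-trended variances, 0 with only the groups compared and with the replicate block, and 0 to 2 when 1 array was left out (2 without mock replicate 3, and 0 without any other array). Between the resected groups, the count of 3 became 1 to 3 when 1 array was left out (1 without day 3 resected replicate 3 or day 14 resected replicate 3) and was 2 with the replicate block. Replicate numbers did not pair the arrays: deviations of same-numbered arrays correlated at -0.09 to 0.05, and 2 of 9 arrays were closest to an array of their own number. Of the differences of named genes, 0 changed sign where either fit made a call. Over all transcript clusters, the 1393 called on day 3 (1092 higher and 301 lower) became 973 higher with 452 lower on quantile-normalised values, 1013 higher with 480 lower on centred values, and 744 higher with 106 lower without day 3 resected replicate 3. The lower calls were also 188 without day 3 resected replicate 2 and 190 with only the groups compared. The 34 called on day 14 became 77 with robust and intensity-trended variances, 58 without mock replicate 3, 20 without day 14 resected replicate 2 and 22 without day 14 resected replicate 3. The 1394 called between the resected groups (310 higher and 1084 lower) became 129 higher with 745 lower without day 3 resected replicate 3, and the higher calls were 170 to 199 without day 3 resected replicate 2 or any 1 day 14 array. Where the call of Cldn3, Cldn8, Cldn10 or Tjp3 ended, the cause was not tested. For the 21 junction genes below 5 log2 on all arrays, a cut set after the values were seen, whether low signal understates changes was not tested.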
